A study of Mus musculus with 6 samples.

Results

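The 10 transcripts described here are Malat1, Neat1, Meg3, Rian, Mirg, Miat, Snhg11, Peg13, Pantr1 and Gas5, long RNAs that are mostly noncoding and are known from the nervous system. They were taken by symbol from the 54040 genes of the deposited tables, and all 10 were found and passed the filter on low counts. The study asked which RNAs change in the mouse dentate gyrus when the m6A reader YTHDF2, a protein that binds N6-methyladenosine in RNA and speeds decay, is knocked out in granule cells. It held 3 libraries labelled cKO (DG deficient in YTHDF2) and 3 labelled Ctrl (the negative control DG), all made from total RNA of C57BL/6 hippocampus dentate gyrus at postnatal day 40. The labels name granule cells but no sorting, and the sources used here do not give the Cre line, sex, litter or number of animals per library. P-values therefore reflect nothing beyond the spread among these 6 libraries.

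Long noncoding RNAs are transcripts that act, where a function is known, without being translated. Malat1 gathers in nuclear speckles, the stores of splicing factors, and Neat1 is the scaffold on which paraspeckles form. Miat is a nuclear RNA of neurons that binds splicing factors. Meg3, Rian and Mirg are made from the maternal copy of the imprinted Dlk1-Dio3 domain, Rian carrying small nucleolar RNAs (snoRNAs) and Mirg a cluster of microRNAs, whereas Peg13 is made from the paternal copy of another imprinted domain. Snhg11 and Gas5 carry snoRNAs in their introns, and Pantr1 lies beside the neural transcription factor gene Pou3f3.

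The label of abundance held for 5 of the 10. Library totals lay between 16794642 and 19190101 counts. Malat1 had a mean of 290.1 FPKM (fragments scaled by gene length and by library size) over the 6 libraries, rank 53 of all genes. Miat at 107 FPKM, Snhg11 at 83.3 FPKM, Peg13 at 39.8 FPKM and Gas5 at 22.3 FPKM followed. Pantr1 (5.42 FPKM), Neat1 (2.30 FPKM) and Mirg (2.12 FPKM) were of moderate level. Meg3 had 0.178 FPKM and Rian 0.0946 FPKM, ranks 19738 and 22069 of all genes, which goes against the label for these transcripts in these tables. The noncoding part of the label also failed for 1 gene, since the deposited table gives Snhg11 the biotype protein_coding. On this scale the ranges of neighbours in the order did not overlap within either group, except for Neat1 and Mirg in cKO, with 2.24 to 2.66 FPKM and 2.20 to 2.75 FPKM. FPKM divides by all annotated exon bases, 18089 for Meg3 and 18234 for Rian, so that a short isoform is given too low a value. Their counts were also low before any scaling by length. Meg3 had a mean of 65.7 counts in cKO and 48.3 in Ctrl, and Rian 39 in cKO and 20.7 in Ctrl. The reason for these low counts was not tested.

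**Figure D1:**
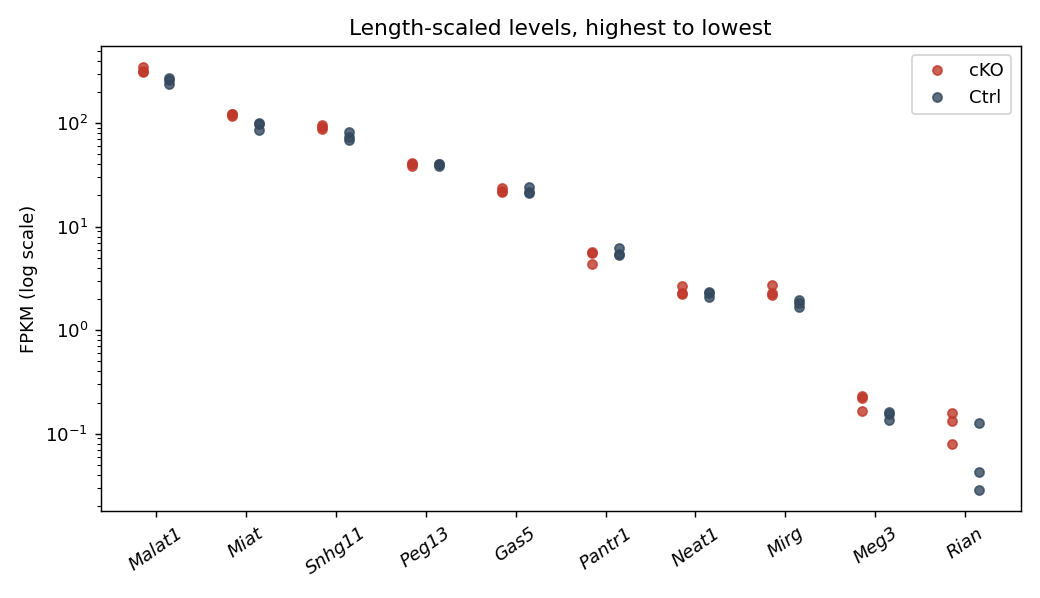
FPKM of the 10 RNAs in each library on a log axis, ordered by mean level, with cKO points left of Ctrl points. The levels run from 290.1 FPKM for Malat1 to 0.0946 FPKM for Rian, and Meg3 and Rian lie far below the rest.

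The sequence around the start site is shown for 4 members. RefSeq promoters of build GRCm38.p6 (250 bases before to 50 after the start) matched 7 of the 10 symbols. Malat1, Miat and Snhg11 are printed as the abundant RNAs that rose, and Meg3, which did not pass the test, for its motifs. Capitals mark matches on either strand to 5 motifs, namely the TATA box (TATAAA), the CCAAT box (CCAAT), the GC box (GGGCGG), the cAMP response element (TGACGTCA) and the E-box (CACGTG). Overlapping matches run together.
Malat1, minus strand of chr19:5802623-5802922: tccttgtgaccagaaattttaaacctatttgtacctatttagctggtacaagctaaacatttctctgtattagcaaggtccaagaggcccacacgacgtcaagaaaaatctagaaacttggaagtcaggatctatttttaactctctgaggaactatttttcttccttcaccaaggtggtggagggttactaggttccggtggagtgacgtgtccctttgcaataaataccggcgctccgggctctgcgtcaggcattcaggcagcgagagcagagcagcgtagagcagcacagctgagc
Miat, minus strand of chr5:112228899-112229198: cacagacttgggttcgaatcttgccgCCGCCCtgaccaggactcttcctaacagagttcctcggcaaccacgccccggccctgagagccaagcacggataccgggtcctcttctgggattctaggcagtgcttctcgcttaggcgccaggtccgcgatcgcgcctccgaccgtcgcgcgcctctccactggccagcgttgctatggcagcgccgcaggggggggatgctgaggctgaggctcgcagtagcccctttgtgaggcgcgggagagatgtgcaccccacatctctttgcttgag
Snhg11, plus strand of chr2:158375463-158375762: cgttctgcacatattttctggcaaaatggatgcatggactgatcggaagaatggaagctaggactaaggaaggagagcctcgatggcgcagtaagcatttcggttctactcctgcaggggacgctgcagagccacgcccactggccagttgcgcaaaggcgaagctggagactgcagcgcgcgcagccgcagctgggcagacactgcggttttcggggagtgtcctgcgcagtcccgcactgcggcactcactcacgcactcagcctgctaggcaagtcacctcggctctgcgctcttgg
Meg3, plus strand of chr12:109540746-109541045: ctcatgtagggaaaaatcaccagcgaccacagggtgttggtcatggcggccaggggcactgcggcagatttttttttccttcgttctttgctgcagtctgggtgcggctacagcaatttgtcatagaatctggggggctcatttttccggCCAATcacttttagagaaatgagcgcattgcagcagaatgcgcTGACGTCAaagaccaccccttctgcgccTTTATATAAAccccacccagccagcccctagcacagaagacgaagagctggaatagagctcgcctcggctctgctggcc
None of the 5 motifs was matched in the windows of Malat1 and Snhg11, and Miat had 1 match to the GC box, found in 35.7% of all RefSeq promoters. Meg3 had 1 match to the cAMP response element, found in 1.79% of promoters, beside 2 overlapping matches to the TATA box (13.6%) and 1 to the CCAAT box (37.4%). The E-box, found in 7.15% of promoters, was matched in none of these 4 windows. Meg3 was picked for its motifs out of the 7 windows searched, so these shares do not measure how unusual its matches are. Among the windows not printed, Gas5 had 5 matches to the GC box, Mirg had 1 to the CCAAT box and Rian had none to any motif. The windows of Miat and Mirg (chr12:109734731-109735030) lie wholly inside these genes as bounded in the deposited data. Their matches are therefore not upstream of the deposited gene bounds.

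Before the groups were compared, the targeted gene was checked. In replicate order, Ythdf2 stood at 56.8, 56.5 and 54.5 CPM (counts scaled to library size, with TMM factors) for cKO, against 37.9, 68.6 and 68.4 CPM for Ctrl. The library labelled Ctrl replicate 1 was below every cKO library, against its label, and Ythdf2 did not pass the test (log2 fold change -0.06 ± 0.15 SE, edgeR adjusted p = 0.882). Without that library Ythdf2 stood at -0.29 (edgeR adjusted p = 0.00951). The library was singled out by its own Ythdf2 value, so this p-value is no test of the knockout. Values without the library labelled Ctrl replicate 1 are given below for each of the 10 RNAs and, for other genes and lists, where a call changed. The granule cell markers Prox1, with 520 ± 18.7 CPM in cKO and 536 ± 23.4 CPM in Ctrl, and Calb1, with 303 ± 3.85 CPM in cKO and 322 ± 3.59 CPM in Ctrl, were well expressed (SD, n = 3 each), as were astrocyte and oligodendrocyte genes.

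Malat1, Miat, Snhg11 and Mirg were higher in cKO, by 1.24-fold to 1.33-fold, and none of the 10 was lower past the threshold. By edgeR's quasi-likelihood test on counts, with Benjamini-Hochberg adjustment over the 16928 genes tested and a threshold of 0.05, 4 of the 10 rose, 0 fell and 6 did not pass. Of all genes tested, 3.95% were called in either direction 3.07% were called higher and 0.874% lower. The members' median log2 fold change was 0.32, against -0.001 over all tested genes. The groups did not overlap for 5 members, all higher in cKO, against 12.5% of all tested genes higher without overlap and 22.9% in either direction. Without the library labelled Ctrl replicate 1, 3 of the 10 were called, all higher, against 2.91% of tested genes called; Mirg then stood at 0.42, Meg3 at 0.39, Rian at 0.71, Neat1 at 0.06, Pantr1 at -0.06, and Peg13 and Gas5 at -0.01 on the log2 scale, none of these 7 past the threshold. Together the 10 took 0.438% to 0.475% of counts in cKO and 0.342% to 0.39% in Ctrl.

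Malat1 (ENSMUSG00000092341, GRCm38 chromosome 19, 5795690 to 5802672, minus strand), the speckle RNA, had 2163, 2228 and 2436 CPM in the cKO libraries, in replicate order, against 1671, 1808 and 1914 CPM in the Ctrl libraries. Every cKO library was above every control, and the library labelled Ctrl replicate 1 was the lowest. Malat1 thus rose 1.27-fold (log2 0.34 ± 0.05 SE; edgeR adjusted p = 0.00206). Without the library labelled Ctrl replicate 1 it was 0.29 (edgeR adjusted p = 0.00245). Its replicates varied by 6.27% in cKO and 6.79% in Ctrl (coefficient of variation of CPM), far above the counting error of 0.502% and 0.561%.

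Miat (ENSMUSG00000097767, chromosome 5, 112213228 to 112229395, minus strand) had 1092, 1151 and 1136 CPM in cKO and 792, 938 and 912 CPM in Ctrl. Again the groups did not overlap and the library labelled Ctrl replicate 1 stood lowest. Miat rose 1.28-fold (log2 0.35 ± 0.05 SE; edgeR adjusted p = 0.00182), and by 0.28 on the log2 scale without that library (edgeR adjusted p = 0.00055). Other annotated genes share 30.4% of Miat's exon bases, the greatest part with the antisense transcript Gm26953. Gm26953 had 29, 46 and 28 counts in cKO and 18, 20 and 15 counts in Ctrl, a log2 fold change of 0.97 ± 0.31 (SE) that did not pass (edgeR adjusted p = 0.0968). Whether the counting used strand is not stated, so the reads of this pair cannot be told apart.

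Snhg11 (ENSMUSG00000044349, chromosome 2, 158375638 to 158386145, plus strand), an snoRNA host gene, had 754, 794 and 820.0 CPM in cKO and 632, 583 and 699 CPM in Ctrl. The groups did not overlap, and here Ctrl replicate 2 was the lowest. Snhg11 rose 1.24-fold (log2 0.31 ± 0.06 SE; edgeR adjusted p = 0.00623). Without Ctrl replicate 2 it was 0.24 (adjusted p = 0.0287), and without the library labelled Ctrl replicate 1 it was 0.30 (adjusted p = 0.0112), both by edgeR. The snoRNA gene Gm25129, which lies inside Snhg11, held 17, 12 and 24 counts in cKO and 28, 22 and 39 counts in Ctrl. Its log2 fold change was -0.72 ± 0.30 (SE), the opposite sign to its host, and did not pass (edgeR adjusted p = 0.225).

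**Figure D2:**
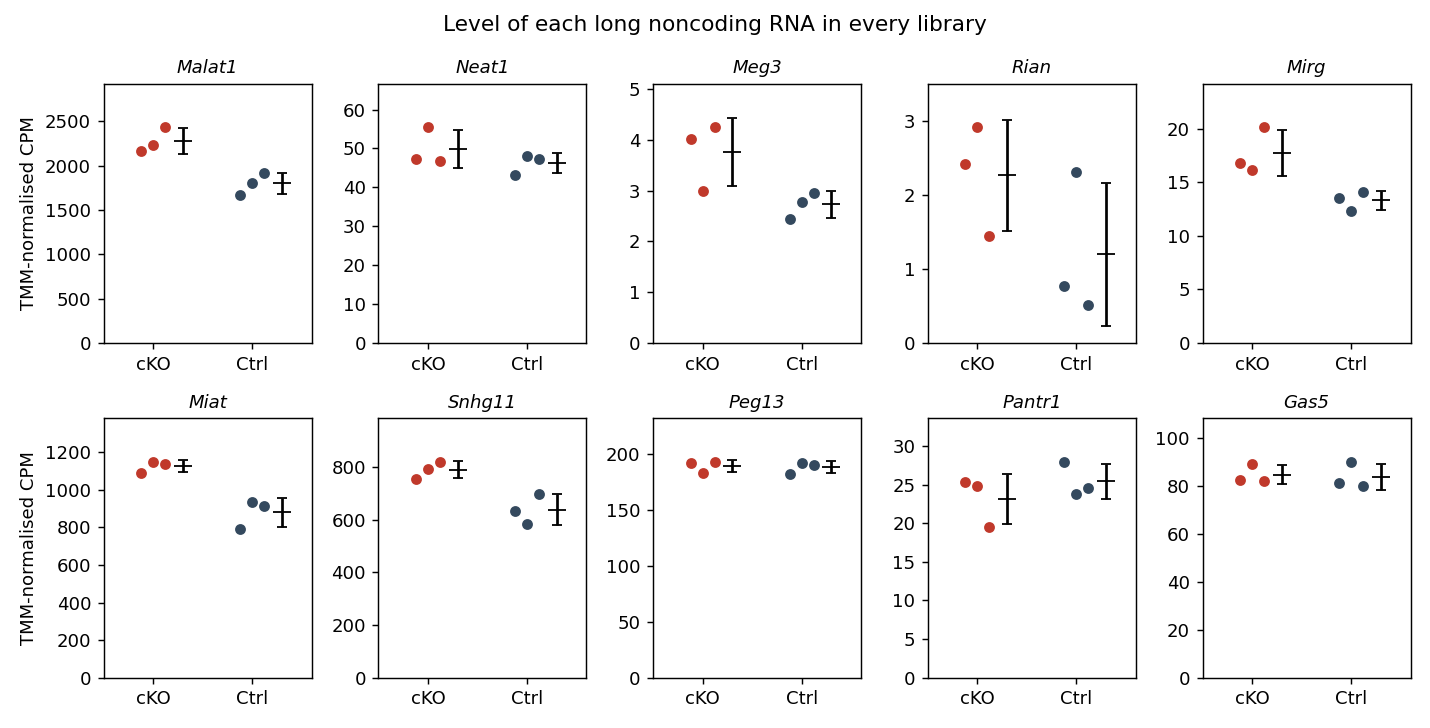
TMM-normalised CPM of each RNA in the 3 cKO libraries (left) and the 3 Ctrl libraries (right), from 0 on each axis; the black mark and bar give the mean and SD. Malat1, Miat, Snhg11, Mirg and Meg3 show no overlap between the groups, Neat1, Rian, Peg13, Pantr1 and Gas5 do.

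The calls of the 3 abundant RNAs did not rest on 1 library. For Malat1, Miat and Snhg11 edgeR's adjusted p stayed under 0.05 with any of the 6 libraries left out, the highest being 0.017, 0.0158 and 0.0493. A test on the deposited FPKM values ended all of the calls, although the fold changes hardly moved. In limma-trend on log2(FPKM + 1) Malat1 stood at 0.33, Miat at 0.35 and Snhg11 at 0.30, with limma adjusted p-values of 0.065, 0.0562 and 0.0799. Over the alternatives run, adjusted p-values reached from 1.92e-16 to 0.065 for Malat1 and from 8.49e-16 to 0.0562 for Miat. For Snhg11 they reached from 6.67e-11 to 0.0799. The lowest value of each range came only from edgeR with no filter on low counts, and the highest from limma-trend on log2(FPKM + 1).

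Among the imprinted RNAs of the Dlk1-Dio3 domain Mirg rose, and Meg3 and Rian did not pass the test. Mirg (ENSMUSG00000097391, chromosome 12, 109729764 to 109749460, plus strand) had 16.8, 16.2 and 20.2 CPM in cKO and 13.5, 12.3 and 14.1 CPM in Ctrl, with no overlap. Mirg rose 1.33-fold (log2 0.41 ± 0.10 SE; edgeR adjusted p = 0.0402). This call was the least stable of the 4. The edgeR adjusted p was 0.0629 without cKO replicate 1, 0.215 without cKO replicate 3, and 0.0708, 0.136 and 0.0595 without Ctrl replicates 1, 2 and 3. With offsets for GC content and length it was 0.0696, within a range of 0.00563 to 0.215 over all alternatives run.

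Meg3 (ENSMUSG00000021268, chromosome 12, 109541001 to 109571726, plus strand) had 68, 50 and 79 counts in cKO and 41, 47 and 57 counts in Ctrl, or 4.02, 2.99 and 4.26 CPM against 2.45, 2.78 and 2.96 CPM. The groups were separate by a narrow margin, and the counting error alone was 12.3% in cKO and 14.4% in Ctrl. The log2 fold change of 0.46 ± 0.20 (SE) had an edgeR adjusted p of 0.234. Rian (ENSMUSG00000097451, chromosome 12, 109603940 to 109661716, plus strand) had 41, 49 and 27 counts in cKO and 13, 39 and 10 counts in Ctrl. Ctrl replicate 2 held about as many reads as the cKO libraries, so the groups overlapped. Rian's log2 fold change was 0.93 ± 0.43 (SE) with an edgeR adjusted p of 0.277. Without Ctrl replicate 2 it was 1.80 with an adjusted p of 0.0327, and with no filter on low counts 0.92 with an adjusted p of 0.0305, both by edgeR. It was 0.54 without Ctrl replicate 3 and 0.70 without cKO replicate 2, with edgeR adjusted p-values of 0.555 and 0.554, and over all alternatives run the adjusted p lay between 0.0305 and 0.555.

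The other genes of the domain had few or no counts. Dlk1 and Rtl1, which are made from the paternal copy, had 0 counts in all 6 libraries together, which allows up to 0.0285 CPM for each (3 counts over all libraries, counting error only). The noncoding B830012L14Rik had 29 counts in all and was not tested. Dio3, the gene of an enzyme that inactivates thyroid hormone, averaged 3.10 ± 0.33 CPM in cKO and 2.52 ± 0.97 CPM in Ctrl (SD, n = 3 each) and did not pass (0.28, edgeR adjusted p = 0.615), nor did Begain, the nearest tested coding gene on the other side (0.04, edgeR adjusted p = 0.727). Other annotated genes share 8.29% of the exon bases of Meg3, 3.42% of those of Rian and 5.03% of those of Mirg, and how reads there were assigned is not stated.

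Ratios of counts between RNAs of this domain inside a library need no scaling for library size. They are not scaled for gene length, so they compare libraries and do not give the relative levels of the RNAs. Mirg had 4.78 ± 0.62 counts per Meg3 count in cKO and 4.91 ± 0.57 in Ctrl (SD, n = 3 each; exact two-sided permutation p = 0.7). Rian had 0.603, 0.98 and 0.342 counts per Meg3 count in the cKO libraries, against 0.317, 0.83 and 0.175 in the Ctrl libraries (exact permutation p = 0.4). The ratio of Mirg to Meg3 was thus close to even across the libraries, whereas that of Rian to Meg3 varied several-fold within each group. With 3 libraries a group no exact p can fall below 0.1, and adjusted over the 3 ratios computed the values were 0.7 and 0.6. When the library labelled Ctrl replicate 1 was left out, the log2 difference was 0.05 for Mirg to Meg3, against -0.04 with it, and 0.62 for Rian to Meg3, against 0.71 with it.

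Mirg contains 14 RefSeq microRNA hairpins with 26 mature sequences. They are shown for the 5 hairpins with the most reads in the count table, with the seed (bases 2 to 8) in capitals; letters are from RefSeq, build GRCm38.p6. 
mmu-miR-541-5p: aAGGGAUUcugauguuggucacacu
mmu-miR-541-3p: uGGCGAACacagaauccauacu
mmu-miR-453: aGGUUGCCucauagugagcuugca
mmu-miR-496a-5p: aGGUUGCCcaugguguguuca
mmu-miR-496a-3p: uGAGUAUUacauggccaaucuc
mmu-miR-3072-5p: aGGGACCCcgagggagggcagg
mmu-miR-3072-3p: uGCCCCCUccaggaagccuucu
mmu-miR-154-5p: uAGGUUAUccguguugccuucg
mmu-miR-154-3p: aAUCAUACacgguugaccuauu
The only seed shared by 2 of the 26 was GGUUGCC, in miR-453 and miR-496a-5p. Fragments of these libraries are counted on the hairpin genes and do not measure the mature microRNAs. Summed over the libraries of a group, Mir541 held 28 counts in cKO and 16 in Ctrl, and Mir453 held 17 in cKO and 19 in Ctrl. Mir3072 held 13 in cKO and 10 in Ctrl, Mir496a 11 in each group, and Mir154 10 in cKO and 7 in Ctrl. All 15 microRNA genes inside Mirg together had 93 counts in cKO and 67 in Ctrl. The 13 snoRNA and 4 microRNA genes inside Rian and the 10 snoRNA genes inside Gas5 had 0 in every library. Some of the small RNA genes inside Mirg, Rian and Gas5 share bases with exons of their host. How reads there were assigned is not stated, so a count of 0 does not show that the RNA was absent.

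Neat1, the paraspeckle scaffold next to Malat1 on chromosome 19 (ENSMUSG00000092274, 5824708 to 5845478, minus strand), did not pass the test. It had 47.2, 55.6 and 46.9 CPM in cKO and 43.2, 48.1 and 47.4 CPM in Ctrl, which overlap. The log2 fold change was 0.11 with a 95% interval of -0.05 to 0.26 (edgeR adjusted p = 0.487), so that a rise as large as Malat1's 0.34 lay outside its interval. Neat1 had 0.022 ± 0.00286 counts per Malat1 count in cKO and 0.0258 ± 0.000927 in Ctrl (SD, n = 3 each; exact two-sided permutation p = 0.2, or 0.6 adjusted over the 3 ratios). That test cannot go below 0.1, so it could not decide whether these neighbours differed in response. The log2 difference of this ratio was -0.23 with and without the library labelled Ctrl replicate 1. The neighbouring coding gene Frmd8 (-0.20, edgeR adjusted p = 0.401) did not pass either.

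Peg13 (ENSMUSG00000106847, chromosome 15, 72805600 to 72810324, minus strand), which lies within the gene Trappc9, was the steadiest member. It had 192, 184 and 193 CPM in cKO and 183, 192 and 191 CPM in Ctrl, and the groups overlapped. Its log2 fold change was 0.01, with a 95% interval of -0.08 to 0.10 (edgeR adjusted p = 0.951). Kcnk9, a potassium channel gene of the same imprinted domain that is made from the maternal copy in brain, rose, with 270.0 ± 0.84 CPM in cKO and 225 ± 17.5 CPM in Ctrl (log2 fold change 0.26 ± 0.05 SE, edgeR adjusted p = 0.00988). Trappc9 (0.01), Ago2 (0.08) and Chrac1 (-0.10) did not pass, with edgeR adjusted p-values of 0.975, 0.401 and 0.69. Kcnk9 stayed past the threshold without the library labelled Ctrl replicate 1 (0.20, edgeR adjusted p = 0.0163). Of the 5 genes of this domain 1 rose and 4 did not pass, with a median of 0.01.

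Gas5, a snoRNA host with a 5′ terminal oligopyrimidine tract like that of ribosomal protein genes (ENSMUSG00000053332, chromosome 1, 161034422 to 161038539, plus strand), had 82.7, 89.3 and 82.0 CPM in cKO and 81.2, 90.2 and 80.2 CPM in Ctrl. The values of the groups interleaved, and the log2 fold change was 0.01 with a 95% interval of -0.11 to 0.14 (edgeR adjusted p = 0.941). Other annotated genes share 17.8% of the exon bases of Gas5, and how reads there were assigned is not stated. Pantr1 (ENSMUSG00000060424, chromosome 1, 42590782 to 42694842, minus strand) had 25.3, 24.8 and 19.4 CPM in cKO and 28.0, 23.8 and 24.5 CPM in Ctrl. It was the only member with a negative log2 fold change, -0.13 with a 95% interval of -0.35 to 0.08 (edgeR adjusted p = 0.532). Its neighbour Pou3f3, 926 bases away, stood at 0.05 (edgeR adjusted p = 0.609). Coding genes next to the remaining members did not pass either. Mn1 (0.07) and Crybb1 (-0.08) flank Miat, Lbp (0.47) and Ralgapb (0.08) flank Snhg11, Rc3h1 (-0.05) lies beside Gas5, Zbtb37 (0.11) overlaps Gas5, and Mfsd9 (0.25) lies on the far side of Pantr1, with edgeR adjusted p from 0.407 to 0.888.

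**Figure D3:**
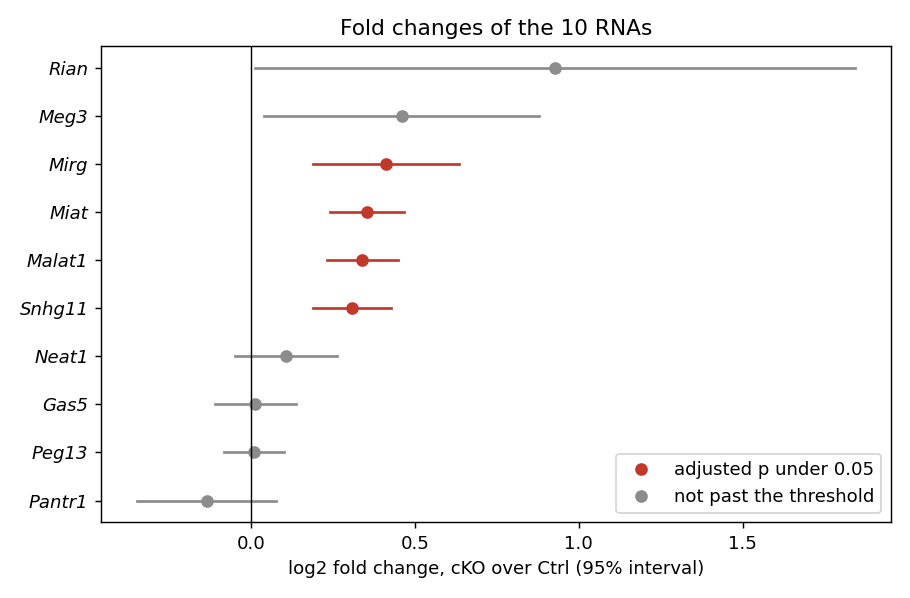
Log2 fold changes of the 10 RNAs, cKO over Ctrl, with 95% intervals from the edgeR fit; red marks an adjusted p under 0.05 over all tested genes. Mirg, Miat, Malat1 and Snhg11 lie between 0.31 and 0.41, while the intervals of Meg3 and Rian are wide and those of Peg13 and Gas5 are narrow around 0.

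The members that rose were for the most part the deeply counted ones, and calls were more frequent among abundant genes in general. Of the 2389 tested genes with at least 100 CPM, 7.83% were called higher. Among 1943 other long noncoding RNA genes 27 rose and 3 fell (1.39% and 0.154%), with a median log2 fold change of 0.07. Of the 13 among them with at least 100 CPM, 3 rose, which is 23.1%. These were Firre, an RNA that helps to arrange chromosomes in the nucleus, with 162 ± 5.40 CPM in cKO and 128 ± 3.68 CPM in Ctrl (0.34, edgeR adjusted p = 0.000839), Mir124a-1hg, the host of the neuronal microRNA miR-124, with 273 ± 10.4 CPM in cKO and 216 ± 18.7 CPM in Ctrl (0.34, edgeR adjusted p = 0.00366), and the predicted gene Gm10419 (0.32, edgeR adjusted p = 0.00247), named after its value was seen. The other 10 did not pass.

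Of 16 tested snoRNA host genes, Snhg11 and Snhg20 (21.7 ± 1.48 CPM in cKO and 16.99 ± 1.47 CPM in Ctrl, 0.35, edgeR adjusted p = 0.0394) rose and 14 did not pass, with a median of -0.03. Among 22 other imprinted genes 0 rose, 21 did not pass and Ndn, which encodes the growth suppressor necdin, fell to 170 ± 0.99 CPM in cKO, against 191 ± 9.32 CPM in Ctrl (-0.17, edgeR adjusted p = 0.046). The median of that list was -0.08. Snhg20 (0.30, edgeR adjusted p = 0.114) and Ndn (-0.13, edgeR adjusted p = 0.116) were not called without the library labelled Ctrl replicate 1. Of 16 other well-known long noncoding RNAs Firre and Mir124a-1hg rose and 14 did not pass, with a median of 0.04.

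Messages for proteins of the structures that hold Malat1 and Neat1 were compared in the same way. Of 17 nuclear speckle genes 4 rose, 0 fell and 13 did not pass, and 16 had a positive log2 fold change, with a median of 0.18. Of all 16928 tested genes 8413 had a positive log2 fold change and 3.07% were called higher. Among those with at least 100 CPM 7.83% were called higher. The speckle list was chosen with earlier results of these data known. Srrm2, which encodes a core scaffold of speckles, had 953 ± 76.8 CPM in cKO and 731 ± 46.0 CPM in Ctrl (0.38, edgeR adjusted p = 0.00167). Son, the other core scaffold gene, had 745 ± 18.6 CPM in cKO and 625 ± 21.5 CPM in Ctrl (0.25, edgeR adjusted p = 0.00238), and the splicing factor genes Srsf5 (0.33) and Srsf11 (0.23) rose with edgeR adjusted p-values of 0.0014 and 0.00903. Of 17 paraspeckle genes 1 rose, Hnrnpk, an RNA-binding protein gene, fell (-0.16, edgeR adjusted p = 0.0387) and 15 did not pass, with a median of -0.002. Without the library labelled Ctrl replicate 1 the same 4 speckle genes rose, with a list median of 0.14, and neither of the called paraspeckle genes passed (Hnrnpk -0.14, edgeR adjusted p = 0.0781).

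By a distance between profiles, the root mean square difference of centred log2 CPM over the 6 libraries, the profile most like that of Malat1 was that of the nuclease gene Mus81 (0.017), where Malat1 itself spread by 0.19. Miat was closest to Mir124a-1hg (0.019) and the glutaminase gene Gls2 (0.028), and Snhg11 to Fuz (0.019) and the chloride channel gene Clcn2 (0.023). Mirg was closest to the diacylglycerol kinase gene Dgkq (0.049) and to Tsc2 (0.05), Meg3 to Adck5 (0.089) and Fam227a (0.10). For Rian no profile came closer than 0.64. For Neat1, Peg13, Pantr1 and Gas5 the nearest were Sphk2 and Gnl3 (Neat1), Def8 and Cluap1 (Peg13), Mad1l1 and Nat8f4 (Pantr1) and Cald1 and Tbpl1 (Gas5), within 0.007 to 0.049. Only 6 libraries enter each distance.

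The letters GGACT, the core of the consensus that the m6A writer prefers, were counted in the longest GENCODE M21 transcript of each gene. Malat1 had 9 in 6983 bases (1.29 per kb), Miat 19 in 9163 (2.07 per kb), Snhg11 11 in 5864 (1.88 per kb) and Mirg 6 in 3822 (1.57 per kb). Pantr1, which did not pass the test, was the densest at 3.36 per kb (7 in 2085 bases), and Rian was the sparsest at 0.247 per kb. Neat1 (1.11), Meg3 (1.10), Peg13 (1.06) and Gas5 (1.17) lay near the median of 1.01 per kb over 15182 tested genes with transcripts of at least 1000 bases, whose middle range was 0.635 to 1.47. Miat, Snhg11, Mirg and Pantr1 lay above that range and Malat1 within it. Over 1493 other tested long noncoding RNA genes of that length the median was 0.849 per kb and the middle range 0.472 to 1.36. A match of these letters does not show a methylated base.

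Some microglial and astrocyte markers were lower in cKO, and in bulk tissue fewer cells of a type and less RNA per cell cannot be told apart. For comparison, 3.07% of all tested genes were called higher and 0.874% lower. Of 10 tested microglial markers 5 fell, among them Cx3cr1 (-0.35), P2ry12 (-0.35), Ctss (-0.32) and C1qb (-0.31), edgeR adjusted p between 0.00903 and 0.0281. None of the 10 microglial markers had a positive log2 fold change. The 11 listed together summed to 358 to 377 CPM in cKO and 414 to 449 CPM in Ctrl. Of 10 astrocyte markers Gja1 (-0.19), Aldoc (-0.15) and Aqp4 (-0.21) fell past the threshold (edgeR adjusted p between 0.0179 and 0.0416), and their sum was 5488 to 5498 CPM in cKO and 5877 to 6038 CPM in Ctrl. Of 12 granule cell markers Pitpnm2 (0.27) rose and Stxbp6 (-0.29) fell, with edgeR adjusted p-values of 0.000908 and 0.00554, and they summed to 3769 to 3964 CPM in cKO and 3658 to 3878 CPM in Ctrl. The sums of the mossy cell and pyramidal neuron list, in which Csf2rb2 (0.69) and Fibcd1 (0.30) rose with edgeR adjusted p-values of 0.0028 and 0.0482, were 1351 to 1378 CPM in cKO and 1270 to 1364 CPM in Ctrl.

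Without the library labelled Ctrl replicate 1, 3 of the 10 microglial markers fell, Ctss (-0.23) and C1qb (-0.31) no longer passing at edgeR adjusted p-values of 0.079 and 0.0525. Of the astrocyte markers 3 fell and 1 rose without it, Gfap (-0.24) and Fgfr3 (0.29) being called at 0.0306 and 0.011 and Aqp4 (-0.19) not at 0.0886. Fibcd1 (0.28) was not called at 0.10, while Pcp4 (-0.89), of the same neuron list, was lower at 0.00405.

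None of the markers of the other cell types passed in the fit of all 6 libraries. Without the library labelled Ctrl replicate 1, Ly6c1 (0.42) and Slc2a1 (0.31) of endothelium rose and Hbb-bs (-0.89) of blood fell, with edgeR adjusted p-values of 0.0324, 0.0052 and 0.0426. The sums were 513 to 540.0 CPM in cKO and 540.5 to 584 CPM in Ctrl for immature granule neurons and progenitors, and 714 to 716 CPM in cKO and 641 to 769 CPM in Ctrl for interneurons. For the oligodendrocyte lineage they were 1486 to 1631 CPM in cKO and 1507 to 1690 CPM in Ctrl, and for endothelial and mural cells 263 to 277 CPM in cKO and 235 to 269 CPM in Ctrl. Blood genes summed to 10.9 to 28.1 CPM in cKO and 14.97 to 34.4 CPM in Ctrl, and choroid plexus genes to 24.9 to 27.1 CPM in cKO and 23.0 to 27.6 CPM in Ctrl. The edgeR values of smallest p in these lists were Stmn1 (-0.19) and Dcx (-0.17), Vip (0.48) and Slc32a1 (0.15), Cspg4 (0.19) and Cnp (-0.12), Ly6c1 (0.30) and Slc2a1 (0.17), Hbb-bs (-0.64) and Hba-a1 (-0.61), and Aqp1 (0.77) and Kl (0.05). Transcripts of the mitochondrial genome took 4.21% to 4.45% of counts in cKO and 4.597% to 5.19% in Ctrl, highest in the library labelled Ctrl replicate 1, where Malat1, Miat, Meg3, Neat1 and Peg13 were lowest. The part of these differences in the rises of Malat1, Miat, Snhg11 and Mirg was not tested.

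**Figure D4:**
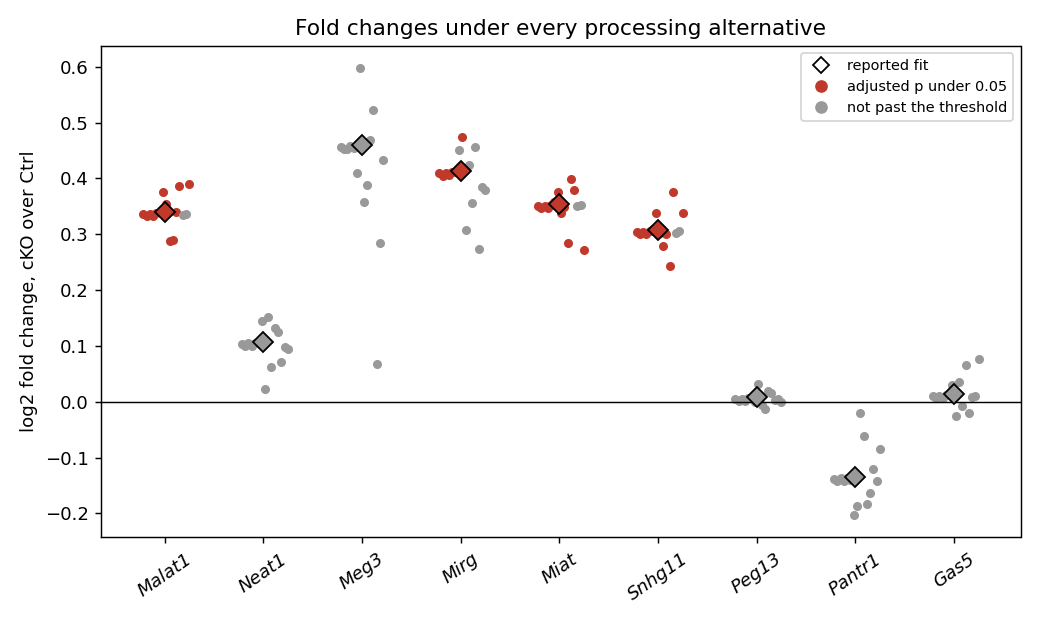
Log2 fold changes of 9 of the RNAs (Rian left out for its range) under the reported fit (diamonds) and up to 15 alternatives (circles); red marks an adjusted p under 0.05. The circles of Malat1, Miat and Snhg11 stay between 0.24 and 0.40, those of Mirg are grey for 8 of 15 alternatives, and Peg13 and Gas5 lie on both sides of 0.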

How the data were processed

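The authors deposited raw gene counts and FPKM values for the same 54040 genes in 6 RNA-seq libraries. Per the labels' protocols RNA was extracted with Trizol and libraries were made with an NEBNext Ultra kit. The submitters' processing notes name HISAT2 2.0.5, StringTie 1.3.3b, featureCounts 1.5.0-p3 and GRCm38; no source used here states the strand setting, the annotation release or how each value was made. Gene lengths equal the GENCODE M21 exon unions for all 10 members. Groups came from the titles, and 0 columns of per-sample values were left unused.

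Counts were filtered with filterByExpr (minimum count 10, minimum total 15; 16928 genes kept), scaled by TMM and tested with edgeR 4.0.16 (quasi-likelihood F test, group only) in R 4.3.3. Adjusted p-values are Benjamini-Hochberg values over all tested genes. The test was checked on simulated counts. Intervals and the floor of 3 counts cover counting error or the spread between libraries only. Alternatives were DESeq2 1.42.0, scaling by RLE or by upper quartiles, other filters, a replicate block, leaving out each library (for the lists only Ctrl replicate 1, chosen after seeing the data), limma-trend (limma 3.58.1) on log2 FPKM made from the deposited values, and loess offsets (span 0.3) for GC content and length. Genes named are the members, the genes of their 2 imprinted domains, neighbours, overlapping rows, and per list up to 4 called genes or the 2 of smallest p, and per member the 2 tested genes (mean of at least 10 CPM, no predicted-gene name) of most similar profile; Prox1 and Calb1 were added as a check of the labelled cell type. Members and lists were chosen with earlier results of these data known. A few genes that this rule names are not reported here.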

Additional observations from a re-analysis of the deposited data

How the results depend on the processing

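Malat1, Miat and Snhg11 stayed past the threshold under 13 of 15 alternatives each, the exceptions being limma-trend on log2(FPKM + 1) and on log2(FPKM + 0.1), under which 0 members were called and 95 and 110 genes in all, against 668. Mirg was past it under 7 of 15. The members called numbered 3 to 4 with 1 library left out (3 without the library labelled Ctrl replicate 1), and the genes called in all 214 to 535 (214 without cKO replicate 3, 355 without Ctrl replicate 2 and 427 without cKO replicate 2). With no filter on low counts 1155 genes and 5 members (Rian added) were called, and 416 genes and 3 members after the GC and length offsets. With 1 library left out Peg13 ranged from -0.0133 to 0.0314 and Gas5 from -0.0261 to 0.065 on the log2 scale. Peg13 changed sign without cKO replicate 1 (-0.001), cKO replicate 3 (-0.0054) or Ctrl replicate 1 (-0.0133) and after the offsets (-0.0006), and Gas5 without cKO replicate 2 (-0.0261), Ctrl replicate 1 (-0.0083) or Ctrl replicate 3 (-0.0198). With 1 library left out the log2 ratio difference ranged from -0.1352 to 0.0528 for Mirg to Meg3, changing sign without cKO replicate 1 or Ctrl replicate 1 (0.049), from -0.3291 to -0.1415 for Neat1 to Malat1, and from 0.1938 (without Ctrl replicate 3) to 1.3147 (without Ctrl replicate 2) for Rian to Meg3. The cause of these changes was not tested. Same-numbered libraries deviated together only weakly (correlations 0.0914, 0.018 and 0.0085). With so few libraries and no litter given, this cannot settle whether the numbers pair them. With the replicate number as a block 808 genes and the same 4 members were called, and Rian stood at 1.01 (edgeR adjusted p = 0.0912). Meg3 and Rian got no adjusted p from DESeq2, and their 41 to 79 and 10 to 49 counts per library limit what could be detected.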
